A study of Mus musculus with 25 samples.

Results

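The nuclear-encoded subunits of the oxidative phosphorylation (OXPHOS) complexes were followed across 8 sorted populations of mouse group 1 innate lymphoid cells (G1-ILCs), the family that holds natural killer (NK) cells and type 1 innate lymphoid cells (ILC1s). The subunits were chosen by gene symbol alone: protein-coding genes named as Ndufa, Ndufab, Ndufb, Ndufc, Ndufs or Ndufv with a digit, *Sdha* to *Sdhd*, and all names starting with Uqcr, Cox4 to Cox8 or Atp5. Complex I assembly factors (Ndufaf) were left out. This gave 85 of the 46078 genes in the count table, of which 38 belong by name to complex I, 4 to complex II, 8 to complex III, 18 to complex IV and 17 to complex V. A further 11 genes that matched by name but were not annotated as protein coding were not used. By name *Ndufa4* counts here under complex I, although it is known as a component of complex IV, and *Atp5s* encodes coupling factor B rather than a core subunit of complex V.

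All mice were wild-type C57BL/6 by the labels (C57BL/6J in the methods of the study), and bulk RNA was sequenced from NK1.1+NKp46+CD3- cells in 25 libraries. Salivary gland (SG) G1-ILCs (CD49a+CD49b+, 2 libraries), small intestinal lamina propria (LPL) ILC1s (CD27+IL-7R+, 4 libraries), adult liver (AL) 7R+ ILC1s (CD49a+CD49b lo, IL-7R+, 3 libraries), AL 7R- ILC1s (CD49a+CD49b lo, IL-7R-, 4 libraries), AL NK cells (CD49a-CD49b+, 2 libraries), bone marrow (BM) immature ILC1s (iILC1s, CD49a+CD49b lo, 3 libraries) and BM NK cells (CD49a-CD49b+, 3 libraries) came from mice of 8 weeks. Fetal liver (FL) G1-ILCs (CD49a int CD49b int, 4 libraries) came from embryos at E18.5. FL replicates 2 and 3 differed by less than the other replicates did and were counted as 1 sample (chi-square per degree of freedom 1.18, against 3.51 to 12.4 for the other 28 pairs), which leaves 3 FL samples and 24 samples in all. SG and LPL tissue was digested with collagenase and the other tissues were not, so that preparation and group cannot be told apart for these cells.

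OXPHOS couples the oxidation of NADH and succinate to the making of ATP. Complexes I and II pass electrons to ubiquinone, complex III passes them on to cytochrome c, and complex IV hands them to oxygen, while complexes I, III and IV pump protons that drive the ATP synthase, complex V. Most subunits are encoded in the nucleus, but a core set of complexes I, III, IV and V is encoded by mitochondrial DNA (mtDNA), and complex II is encoded by the nucleus alone. In NK cells and other lymphocytes, respiration is known to be low at rest and to be raised when cells grow and divide.

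Libraries held 2302643 to 7995906 counts, with a median of 4603579. Levels are given as normalized CPM (read counts relative to library size, scaled by the trimmed mean of M values, TMM), and 14123 genes, including 78 of the 85 subunits, passed the filter on low counts and were tested. *Eomes*, a transcription factor that marks NK cells, had 0 to 5.64 CPM in AL ILC1s and 24.5 to 34.6 CPM in FL G1-ILCs, against 467 and 477 CPM in AL NK cells and 485 to 525 CPM in BM NK cells. These *Eomes* values do not cover BM iILC1s or LPL ILC1s. The ILC1 list (*Cxcr6*, *Itga1* and 3 others) was at least 714 CPM in every ILC1 and G1-ILC sample and stayed between 16 and 27 CPM in NK cells. It was lower in BM iILC1s (759 to 943 CPM) than in AL ILC1s (1693 to 2528 CPM). SG G1-ILCs held both kinds of marker, with *Eomes* at 191 and 208 CPM and the ILC1 list at 876 and 987 CPM. Genes of other cell types stood out in BM iILC1 replicate 2, where the myeloid gene *Mpo* reached 735 CPM, and erythroid genes summed to 161 and 415 CPM in AL 7R- ILC1 replicates 2 and 3, to 69.7 and 202 CPM in BM iILC1 replicates 1 and 3 and to 26.4 to 222 CPM in FL G1-ILCs. The study calls the libraries of a group, the 4 FL libraries included, biological replicates, but the sources used here do not say that they came from separate animals, so p-values measure the spread between these samples. In bulk RNA, fewer cells of a type and less RNA per cell cannot be told apart.

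Promoter sequences from RefSeq (build GRCm38.p6) were found for 67 of the 85 subunits, in windows of 300 bases of which 250 lie before the transcription start. Genes of the respiratory chain are known targets of NRF1, of the ETS factor GABP, of YY1 and of the oestrogen-related receptors (ERR). On either strand, GCGCATG (NRF1) stood in 13 of the 67 (19.4%, against 4.41% of the 27025 genes in the table), CCGGAAG (ETS and GABP) in 16 (23.9%, against 9.93%), AAGATGG (YY1) in 10 (14.9%, against 7.28%) and AAGGTCA (ERR) in 8 (11.9%, against 5.38%), while 32 held none of the 4. Such a match is a description of letters and does not show binding. The 250 bases before the start are printed for the subunit with the largest change between FL G1-ILCs and AL NK cells, *Ndufa12* (chr10:94198785-94199034, plus strand, none of the 4 motifs), and for the subunit with the largest such change among those holding a motif before the start: *Atp5g2* for NRF1 (chr15:102671048-102671297, minus strand), *Ndufb7* for ETS (chr8:83566508-83566757, plus strand) and *Atp5g3* for ERR (chr2:73911327-73911576, minus strand). Capitals mark the motif, which in *Atp5g2* is read on both strands with overlap, 42 bases before the start on the gene's own strand, in *Ndufb7* begins 20 bases before it, and in *Atp5g3* is on the opposite strand, 52 bases before it. The start is that of RefSeq. In the GENCODE annotation used for names, the windows of *Atp5g2* (gene at chr15:102662864-102672352) and *Ndufa12* (chr10:94198720-94221443) lie inside the gene. That of *Ndufb7* (chr8:83566671-83571626) lies partly inside it. All letters of the YY1 motif stood before the start in only 1 subunit, which the limits of the choice left out.
Ndufa12: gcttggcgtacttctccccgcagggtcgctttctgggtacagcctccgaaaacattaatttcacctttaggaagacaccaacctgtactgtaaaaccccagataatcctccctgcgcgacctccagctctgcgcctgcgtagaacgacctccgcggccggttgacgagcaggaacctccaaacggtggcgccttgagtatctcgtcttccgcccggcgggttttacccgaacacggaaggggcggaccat
Atp5g2: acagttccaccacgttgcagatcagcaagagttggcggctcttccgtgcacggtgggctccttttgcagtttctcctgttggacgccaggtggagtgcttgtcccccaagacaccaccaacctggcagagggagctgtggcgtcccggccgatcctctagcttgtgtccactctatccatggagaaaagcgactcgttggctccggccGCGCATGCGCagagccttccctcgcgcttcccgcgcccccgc
Ndufb7: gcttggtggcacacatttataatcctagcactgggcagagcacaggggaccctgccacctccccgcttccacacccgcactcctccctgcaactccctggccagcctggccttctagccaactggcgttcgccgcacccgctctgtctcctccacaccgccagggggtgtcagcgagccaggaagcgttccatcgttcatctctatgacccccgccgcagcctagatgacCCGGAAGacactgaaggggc
Atp5g3: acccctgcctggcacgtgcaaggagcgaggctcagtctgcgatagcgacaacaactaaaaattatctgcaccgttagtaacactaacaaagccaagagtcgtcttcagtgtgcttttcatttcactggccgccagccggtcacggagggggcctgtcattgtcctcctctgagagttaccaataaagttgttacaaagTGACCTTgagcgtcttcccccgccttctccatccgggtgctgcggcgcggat

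Across the 8 groups, the subunits moved largely as a block, with FL G1-ILCs at the top. The summed level of the subunits was 13906 to 14113 CPM in FL G1-ILCs and 10176 to 11415 CPM in LPL ILC1s, and no other population reached the FL range. SG G1-ILCs (9686 and 10903) overlapped with LPL ILC1s. The order of the groups depends on the TMM factors, which divide the counts. They were 0.775 to 0.797 in LPL ILC1s, 0.945 and 0.949 in SG G1-ILCs and 0.981 to 1.12 in the other groups. With the factors undone, FL G1-ILCs stay on top, but LPL ILC1s lie below BM NK cells and overlap with AL 7R+ ILC1s. As scaled, BM NK cells (8443 to 9537), AL 7R- ILC1s (8052 to 9198) and AL NK cells (8445 and 8703) overlapped with each other. The lowest sums were those of AL 7R+ ILC1s (7486 to 8267) and, within their range, BM iILC1s (7599 to 7753). By group mean of the scaled levels, 55 of the 78 tested subunits were highest in FL G1-ILCs and 18 in LPL ILC1s. BM iILC1s held the lowest mean for 39 and AL 7R+ ILC1s for 15. Of the remaining subunits, *Sdhc*, *Cox6a2* and *Atp5d* were highest in SG G1-ILCs, *Atp5s* in AL 7R- ILC1s and *Ndufb2* in AL NK cells.

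**Figure D1:**
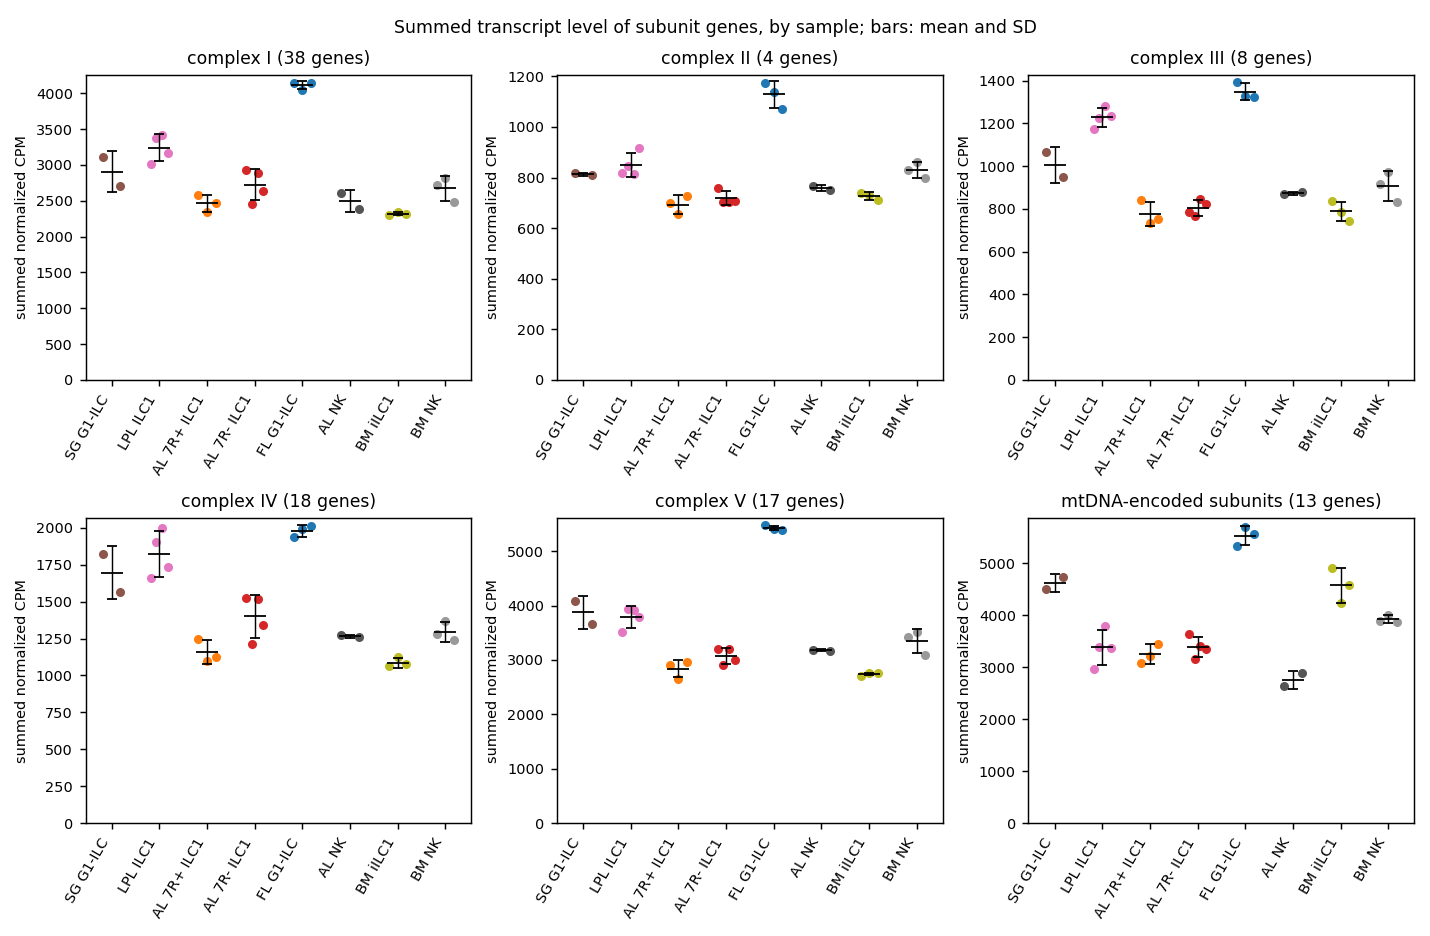
Summed normalized CPM of the subunits of each complex, and of the mtDNA-encoded subunits, by group, with points for samples and bars for the mean and SD. In each complex the 3 FL G1-ILC samples lie at or near the top, with LPL ILC1s next to them in complexes III and IV (for complex III, 1323 to 1395 CPM in FL G1-ILCs and 1172 to 1279.8 CPM in LPL ILC1s).

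Differences among the groups were called for 75 of 78 subunits by edgeR's quasi-likelihood test over the 8 groups (adjusted p under 0.05), against 77.7% of all genes tested. The 3 that did not pass were *Ndufb2* (adjusted p = 0.527), *Sdha* (0.122), the flavoprotein of complex II, and *Ndufb3* (0.0795). The ratio of the highest to the lowest group mean had a median of 1.96 in complex I, 2.09 in complex II, 1.96 in complex III, 1.96 in complex IV and 2.03 in complex V. The widest ranges in complexes I, III and V were those of *Ndufa12*, an accessory subunit of complex I (3.04-fold), *Uqcrq*, a small subunit of complex III (2.65-fold), and *Atp5g3*, a gene for the c subunit of the ATP synthase rotor (2.84-fold). In complex IV *Cox5a* ranged 2.46-fold and in complex II *Sdhb*, its iron-sulphur subunit, ranged 2.27-fold. *Sdha* ranged only 1.19-fold.

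Per kilobase of exon, the leading subunits of complex IV were *Cox8a* (274 CPM per kb, mean of the 8 groups) and *Cox6a1* (257), and those of complex V were the alpha and beta subunits of the catalytic head, *Atp5a1* (239.7) and *Atp5b* (185). In complex I the leading subunits on the same scale were *Ndufa1* (158) and *Ndufb11* (132), in complex II the membrane anchor *Sdhd* (148) and *Sdhb* (85.9), and in complex III *Uqcrb* (109) and *Uqcr10* (102). These are group-averaged levels, and exon length shared with neighbouring genes limits 3 subunits, *Atp5o* (47.9% shared), *Ndufb6* (39.0%) and *Ndufa13* (30.0%). The length is that of all annotated exons of a gene merged, such as 419 bases for *Ndufa1* and 6443 for *Atp5l*. The ranking thus depends on the annotation, and genes with long annotated exons rank low.

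**Figure D2:**
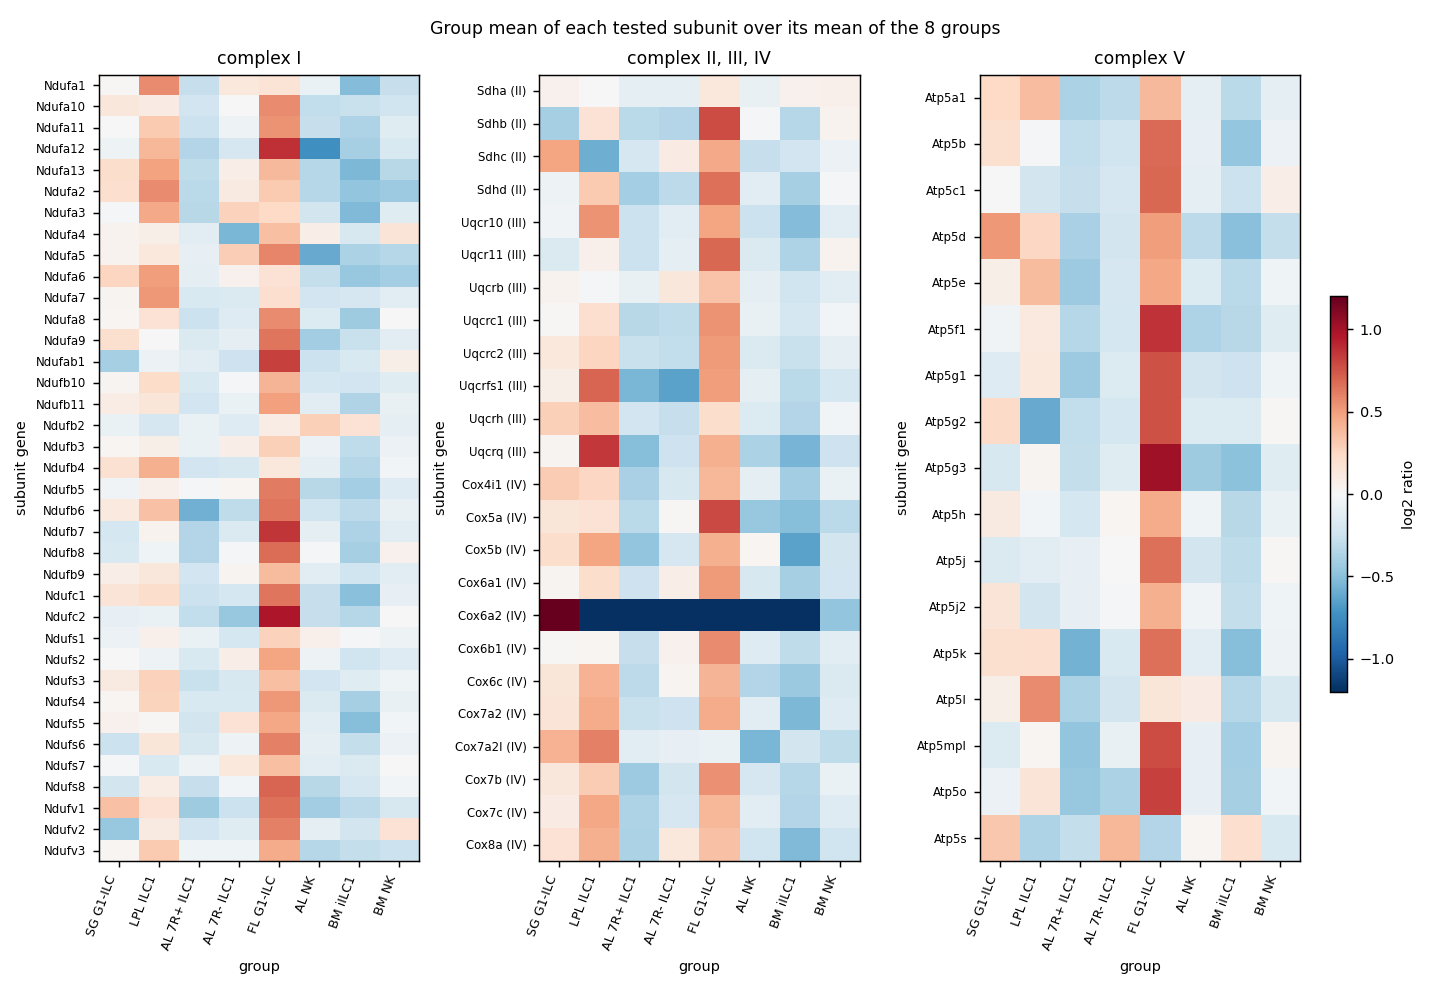
Group mean of each tested subunit over its mean of the 8 groups, as a log2 ratio, with subunits in rows by complex and groups in columns. Colours end at 1.2 either way. Most rows are highest in FL G1-ILCs, 18 are highest in LPL ILC1s, and *Cox6a2* stands apart in SG G1-ILCs.

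FL G1-ILCs were compared with AL NK cells. The subunits of all 5 complexes were higher in FL G1-ILCs: 65 of 78 rose and 0 fell by edgeR's quasi-likelihood test, where 36.4% of all genes tested were called (19.8% higher and 16.6% lower). At an unadjusted p under 0.05 it was 70 (44.3% of all genes), and DESeq2 called 65. Complex I gave 30 of 37, complex II 3 of 4, complex III 7 of 8, complex IV 10 of 12 and complex V 15 of 17. The median log2 fold change of the subunits was 0.70, against 0.03 over all genes.

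The largest change was that of *Ndufa12*, whose promoter is printed above, with 90.2, 88.7 and 97.8 CPM in FL G1-ILCs and 29.2 and 31.4 CPM in AL NK cells. All FL samples lay well above both AL NK samples (log2 fold change 1.61, standard error 0.20, adjusted p = 5.80e-07 by edgeR's quasi-likelihood test). *Atp5g3* had 359, 288 and 327 CPM in FL G1-ILCs and 117 and 123 CPM in AL NK cells, again without overlap (1.44, standard error 0.13, adjusted p = 3.92e-09). *Atp5f1*, the b subunit of the stalk that holds the ATP synthase still, had 534, 474 and 506 CPM in FL G1-ILCs and 211 and 217 CPM in AL NK cells (1.24). *Cox5a* rose by 1.25 on the log2 scale, as did *Ndufc2*, an accessory subunit of the membrane arm of complex I. *Ndufa5* (1.19), *Ndufv1*, the core subunit that takes electrons from NADH (1.08), and *Ndufab1*, the mitochondrial acyl carrier protein (1.07), complete the 8 largest changes. All 3 genes for the c subunit rose, with *Atp5g1* at 0.99 and *Atp5g2* at 0.93.

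The 13 subunits that did not pass were *Ndufa1*, *Ndufa4*, *Ndufa7*, *Ndufb2*, *Ndufb3*, *Ndufb4*, *Ndufs1*, *Sdha*, *Uqcrh*, *Cox5b*, *Cox6a2*, *Atp5l* and *Atp5s*. *Ndufa1*, for example, had 75.8, 69.6 and 77.6 CPM in FL G1-ILCs and 66.4 and 58.7 CPM in AL NK cells (0.25, adjusted p = 0.303). *Sdha* had 399.9, 355 and 341 CPM in FL G1-ILCs and 320.2 and 308 CPM in AL NK cells. The summed level of the subunits was 1.63 times that of AL NK cells (13989.6 ± 109 CPM in FL G1-ILCs, n = 3, and 8574 ± 183 CPM in AL NK cells, n = 2, SD), with ratios from 1.49 in complex II to 1.71 in complex V.

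**Figure D3:**
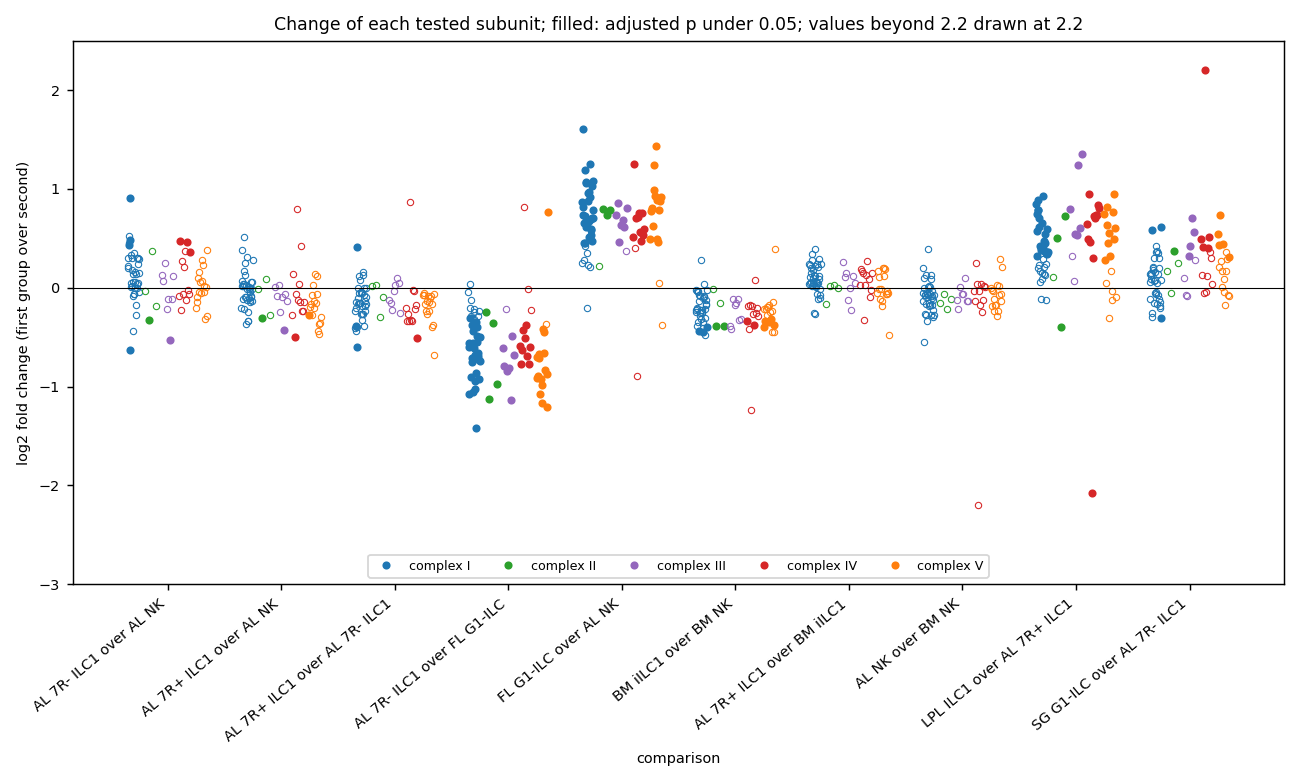
Log2 fold change of each tested subunit in each comparison of 2 groups, by complex, with filled points for adjusted p under 0.05. Values beyond 2.2 are drawn at 2.2. Nearly all points lie above 0 for FL G1-ILCs over AL NK cells (65 called higher) and below 0 for AL 7R- ILC1s over FL G1-ILCs (62 called lower), and most lie above 0 for LPL ILC1s over AL 7R+ ILC1s (53 called higher).

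Some lists of other mitochondrial genes were higher in FL G1-ILCs too, where 19.8% of all genes tested rose and 16.6% fell. Of 12 tested mtDNA-encoded subunits 10 rose, and of 19 genes of the TCA cycle and pyruvate dehydrogenase 11 rose and 0 fell, with *Idh2* (1.28), *Idh3a* (1.17) and *Fh1* (1.05) changing most. In the list of membrane transport and chaperones 14 of 16 rose, among them the prohibitin *Phb2* (1.26), the ADP/ATP carrier *Slc25a4* (1.25) and the import channel *Tomm40* (1.12). Fewer assembly factors passed: 4 of 14 for complex I and 5 of 32 for complexes II to V rose, with *Coa7* at 1.74, and *Cox17*, a copper chaperone, fell by 0.58 on the log2 scale. Of 18 regulators of mitochondrial biogenesis 3 rose and 2 fell. *Ppargc1a*, the coactivator PGC-1alpha, was one that fell, at 0.187, 0.289 and 0.217 CPM in FL G1-ILCs and 7.40 and 7.43 CPM in AL NK cells.

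All 10 genes of the cell cycle list rose in the same comparison, with a summed level of 4714 ± 289 CPM in FL G1-ILCs and 493 ± 46.4 CPM in AL NK cells. The list ranged from 4417 to 4996 CPM in FL G1-ILCs and from 460.3 to 526 CPM in AL NK cells, and its part in the subunit result was not tested. Erythroid markers summed to 26.4, 222 and 149.96 CPM in FL G1-ILCs and to 33.7 and 1.68 CPM in AL NK cells. In the same order of samples, the subunits summed to 14113, 13906 and 13950 CPM in FL G1-ILCs and 8703 and 8445 CPM in AL NK cells. T cell genes (8 in the list) summed to 2407 to 2714 CPM in FL G1-ILCs and to 496 and 546 CPM in AL NK cells, mainly through *Cd3g* (1260 to 1447 CPM in FL G1-ILCs and 4.08 and 5.77 CPM in AL NK cells), while *Cd3e* was at 0.374 to 3.26 CPM in FL G1-ILCs and at 0 in both AL NK samples. Their part was not tested either. Age also differs between the groups and cannot be told apart from the cell population.

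AL 7R- ILC1s were then compared with FL G1-ILCs, since the study follows IL-7R- cells of the liver from fetus to adult. The subunits were lower in the adult cells in every complex: 62 of 78 fell and 1 rose, where 42.6% of all genes tested were called (20.1% higher and 22.4% lower), and the median log2 fold change was -0.62, against 0.06 over all genes. This comparison shares the FL samples with the one before, so the high level of FL G1-ILCs enters both. Complex I gave 27 of 37 lower, complex II 4 of 4, complex III 7 of 8, complex IV 9 of 12 and complex V 15 of 17.

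*Ndufc2* changed most, with 40.3, 41.1, 57.1 and 52.8 CPM in AL 7R- ILC1s and 129, 125 and 132 CPM in FL G1-ILCs (log2 fold change -1.42, standard error 0.14, adjusted p = 3.24e-09 by edgeR's quasi-likelihood test). All adult samples lay far below the fetal ones. *Uqcrfs1*, the Rieske iron-sulphur protein of complex III, had 66.6, 83.1, 73.8 and 63.6 CPM in AL 7R- ILC1s and 156, 148 and 172 CPM in FL G1-ILCs (-1.14). *Sdhb* had 168, 151, 147 and 138 CPM in AL 7R- ILC1s and 338, 339 and 316 CPM in FL G1-ILCs (-1.13, adjusted p = 2.63e-11). In both genes the groups were far apart. *Atp5o*, the OSCP subunit at the top of the ATP synthase stalk, fell by 1.21 on the log2 scale, *Atp5g3* by 1.16, *Ndufa12* by 1.08, *Atp5f1* by 1.07 and *Ndufab1* by 1.06. *Sdha*, which did not pass over the 8 groups, fell here by 0.25 (adjusted p = 0.0243).

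*Atp5s* was the only subunit that rose, with 17.6, 21.1, 34.7 and 22.6 CPM in AL 7R- ILC1s and 16.5, 12.01 and 14.1 CPM in FL G1-ILCs (0.77, adjusted p = 0.0189 by edgeR's quasi-likelihood test). It no longer passed when AL 7R- ILC1 replicates 2 and 3, those with erythroid RNA, were left out (0.51). The summed level of subunits in AL 7R- ILC1s was 0.62 times that in FL G1-ILCs, with 0.57 in complex V and 0.71 in complex IV. Of the mtDNA-encoded subunits 9 of 12 fell, of the TCA cycle list 12 of 19, of the biogenesis regulators 9 of 18, and of membrane transport and chaperones 14 of 16. All 10 cell cycle genes fell as well, and their summed level in AL 7R- ILC1s was 236 to 343 CPM.

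LPL ILC1s were compared with AL 7R+ ILC1s, both IL-7R+ by their gates. Most subunits were higher in the gut cells, led by complexes III and IV. Of 78 subunits 53 rose and 2 fell, where 51.0% of all genes tested were called (24.8% higher and 26.2% lower), so that the groups differ widely in general. Without the filter on low counts, 29 subunits were called. Complex I gave 23 of 37 higher, complex II 2 of 4, complex III 6 of 8, complex IV 11 of 12 and complex V 11 of 17. The median log2 fold change was 0.46, against -0.02 over all genes.

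*Uqcrq* had 125, 136, 117 and 115 CPM in LPL ILC1s and 52.2, 46.8 and 45.5 CPM in AL 7R+ ILC1s. Every gut sample was higher than every liver sample by a wide margin (log2 fold change 1.36, standard error 0.14, adjusted p = 1.10e-08 by edgeR's quasi-likelihood test). *Uqcrfs1* had 162, 182, 195 and 189.7 CPM in LPL ILC1s and 82.3, 62.5 and 84.997 CPM in AL 7R+ ILC1s (1.25 ± 0.12, standard error, with an adjusted p of 1.39e-09). *Cox5b*, a zinc-binding subunit of complex IV, had 118, 133, 139 and 115 CPM in LPL ILC1s and 71.8, 55.0 and 69.1 CPM in AL 7R+ ILC1s (0.95). These genes also showed no overlap. *Atp5l*, the g subunit of the ATP synthase (0.95), *Ndufb6* (0.93), *Ndufa2* (0.89), *Ndufa1* (0.85) and *Cox7c* (0.83) followed. *Ndufa13*, which shares exons with *Tssk6*, rose by 0.79, with *Tssk6* itself at 11.4 to 18.1 CPM in LPL ILC1s and 1.24 to 3.57 CPM in AL 7R+ ILC1s.

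The 2 subunits that fell were *Sdhc* and *Cox6a2*. *Sdhc*, a membrane anchor of complex II, had 77.9, 80.0, 68.6 and 54.0 CPM in LPL ILC1s and 95.3, 84.8 and 95.7 CPM in AL 7R+ ILC1s (-0.39, adjusted p = 0.00915 by edgeR's quasi-likelihood test), while the other anchor of the same complex, *Sdhd*, rose with 216, 237, 219 and 238 CPM in LPL ILC1s and 132, 130.2 and 150.0 CPM in AL 7R+ ILC1s (0.72, adjusted p = 8.87e-07). The genes of complex II thus moved in both directions. *Cox6a2* (-2.08, adjusted p = 0.0176) rests on 7 reads in all 4 LPL libraries and 38 in the 3 AL 7R+ libraries.

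The summed level of subunits in LPL ILC1s was 1.38 times that in AL 7R+ ILC1s (10931 ± 561 CPM in LPL ILC1s, n = 4, and 7932 ± 402 CPM in AL 7R+ ILC1s, n = 3, SD). The ratio was 1.58 in complex III, 1.57 in complex IV, 1.33 in complex V, 1.32 in complex I and 1.23 in complex II. For mtDNA-encoded subunits it was 1.04, with 1 of 12 higher and 3 lower. The calls and these ratios depend on the TMM factors, which divide the counts. The factors were 0.775 to 0.797 in LPL ILC1s and 1.08 to 1.09 in AL 7R+ ILC1s. With the factors undone, the LPL sums of all subunits are lower and the AL 7R+ sums higher, and the groups overlap. Calls without such scaling were not examined.

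The mitochondrial genes outside the complexes did not move one way. Of 15 genes of electron carriers and ubiquinone synthesis 6 rose and 3 fell, with *Coq10b*, a ubiquinone-binding protein, at 399 to 477 CPM in LPL ILC1s and 12.8 to 17.9 CPM in AL 7R+ ILC1s (4.89), *Coq8a*, an atypical kinase of ubiquinone synthesis (3.89), and cytochrome c, *Cycs* (1.71), among the risers. Of 18 biogenesis regulators 4 rose and 9 fell. *Polg2* (3.87) and *Tfam* (1.86), which serve the copying and transcription of mtDNA, rose together with *Gabpb1* (3.11) and *Ppargc1a* (2.48), whereas the mtDNA helicase *Twnk* (-2.51), *Ppargc1b* (-2.07), the mtDNA polymerase *Polg* (-1.72) and the receptor ERRalpha, *Esrra* (-1.62), fell. Of the assembly factors 1 of 14 rose and 3 fell for complex I, and 6 of 32 rose and 9 fell for complexes II to V, where 26.2% of all genes were called lower. Membrane transport and chaperones gave 9 of 16 higher and 0 lower, with the phosphate carrier *Slc25a3* (2.37), the import receptor *Tomm20* (1.96) and the chaperonin *Hspe1* (1.88) in front.

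Markers of other cells moved with this comparison. The ILC2 and ILC3 list (6 genes) summed to 491.5 to 741 CPM in LPL ILC1s and reached at most 272 CPM in the other groups. Its most abundant gene was *Gata3* (401 to 486 CPM in LPL ILC1s), and *Il22* reached 22.9 to 192 CPM in LPL ILC1s and 0 to 0.115 CPM in AL 7R+ ILC1s. In LPL replicates 1 to 4 the ILC2 and ILC3 list summed to 623, 741, 491.5 and 503 CPM. The subunits summed to 10176, 11291, 11415 and 10841 CPM in the same replicates. The T cell gene *Trac* had 77.9 to 129 CPM in LPL ILC1s and 11.9 to 15.4 CPM in AL 7R+ ILC1s. The hepatocyte list summed to 97.1 to 159 CPM in LPL ILC1s and 15.3 to 16.8 CPM in AL 7R+ ILC1s, nearly all *Trf*, and *Alb* was at most 1.11 CPM in LPL ILC1s. The part of such cells and of collagenase digestion in the result was not tested.

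FL G1-ILCs over AL NK cells and LPL ILC1s over AL 7R+ ILC1s share no library. They called 65 and 53 of the same 78 subunits higher, so that most of either list must be shared whatever their relation. Passing in LPL ILC1s but not in FL G1-ILCs were *Atp5l*, *Cox5b*, *Ndufa1*, *Ndufa7*, *Ndufb4* and *Uqcrh*, and 7 subunits (*Atp5s*, *Cox6a2*, *Ndufa4*, *Ndufb2*, *Ndufb3*, *Ndufs1* and *Sdha*) rose in neither. Whether the change differed between these comparisons was not tested.

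SG G1-ILCs were compared with AL 7R- ILC1s. A smaller group of subunits was higher in the gland, mainly of complexes III, IV and V, and 1 subunit, the tissue-restricted *Cox6a2*, was far higher. Of 78 subunits 17 rose and 1 fell, where 32.4% of all genes tested were called (17.8% higher and 14.6% lower), with a median log2 fold change of 0.15, against -0.03 over all genes. The share of called subunits was therefore no larger than that of all genes. Complex I gave 2 of 37 higher, complex II 1 of 4, complex III 4 of 8, complex IV 5 of 12 and complex V 5 of 17. Only 2 SG libraries exist, and without SG replicate 1 the number of called subunits was 7, while without the filter on low counts it was 9.

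*Cox6a2* encodes the form of COX6A that is known from heart and skeletal muscle, whereas *Cox6a1* encodes the form of most other tissues. *Cox6a2* had 53.9 and 58.6 CPM in SG G1-ILCs, from 191 and 232 reads, and 0.497, 0.337, 2.17 and 1.51 CPM in AL 7R- ILC1s. Every other group was far lower than the gland, with BM NK cells next at 5.50, 7.61 and 6.07 CPM (log2 fold change over AL 7R- ILC1s 5.57, standard error 0.58, adjusted p = 1.74e-08 by edgeR's quasi-likelihood test). *Cox6a1* had 186 and 183 CPM in SG G1-ILCs and 219, 168, 205 and 172 CPM in AL 7R- ILC1s (-0.05, adjusted p = 0.791), so that *Cox6a2* came on top of an overlapping level of the common form. *Cox6a2* shares 10.3% of its exon length with *Itgad*, which had 162 and 163 CPM in SG G1-ILCs and 95.4 to 118 CPM in AL 7R- ILC1s, and the part of such reads was not tested.

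The other subunits that rose did so by at most 1.67-fold. *Atp5d*, the delta subunit of the ATP synthase, had 379 and 341 CPM in SG G1-ILCs and 212, 222, 206 and 222 CPM in AL 7R- ILC1s (0.74 ± 0.11, standard error, with an adjusted p of 6.44e-06 by edgeR's quasi-likelihood test). *Uqcrfs1* had 113 and 122 CPM in SG G1-ILCs and 66.6, 83.1, 73.8 and 63.6 CPM in AL 7R- ILC1s (0.71). *Atp5a1*, the alpha subunit, had 937 and 832 CPM in SG G1-ILCs and 657, 573, 577 and 615 CPM in AL 7R- ILC1s (0.55). In all 3 genes both gland samples lay above all liver samples. *Ndufv1* (0.61), *Ndufa4* (0.58), *Uqcrh* (0.57) and *Cox7a2l* (0.51) also rose. *Ndufv2*, the iron-sulphur partner of *Ndufv1*, fell (-0.31, adjusted p = 0.0414), with 95.3 and 92.7 CPM in SG G1-ILCs and 126, 105, 117 and 117 CPM in AL 7R- ILC1s.

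The summed level of subunits in SG G1-ILCs was 1.18 times that in AL 7R- ILC1s (9686 and 10903 CPM, against 8052 to 9198 CPM). This ratio depends on the TMM factors, which were 0.945 and 0.949 in SG G1-ILCs and 1.04 to 1.07 in AL 7R- ILC1s. With the factors undone, the sums of these groups overlap. Of the mtDNA-encoded subunits 8 of 12 rose and 0 fell, with *mt-Nd6* at 0.65, *mt-Atp6* at 0.64 and *mt-Co1* at 0.62. Of membrane transport and chaperones 8 of 16 rose, led by *Hspe1* (2.40), and of the TCA cycle list 5 of 19, among them *Idh2* (1.81) and *Suclg2* (1.48). *Coq10b* was higher here too (4.24), at 365 and 326 CPM in SG G1-ILCs and 11.4 to 23.1 CPM in AL 7R- ILC1s. *Ppargc1a* had 11.6 and 16.4 CPM in SG G1-ILCs and 0 to 1.01 CPM in AL 7R- ILC1s, whereas 4 of 14 assembly factors of complex I and 7 of 32 of complexes II to V fell. Of the cell cycle list 4 of 10 rose. Myeloid genes were seen in the gland, with *C1qb* at 212 and 160 CPM in SG G1-ILCs and 1.24 to 8.29 CPM in AL 7R- ILC1s. Their part, and that of digestion, was not tested.

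**Figure D4:**
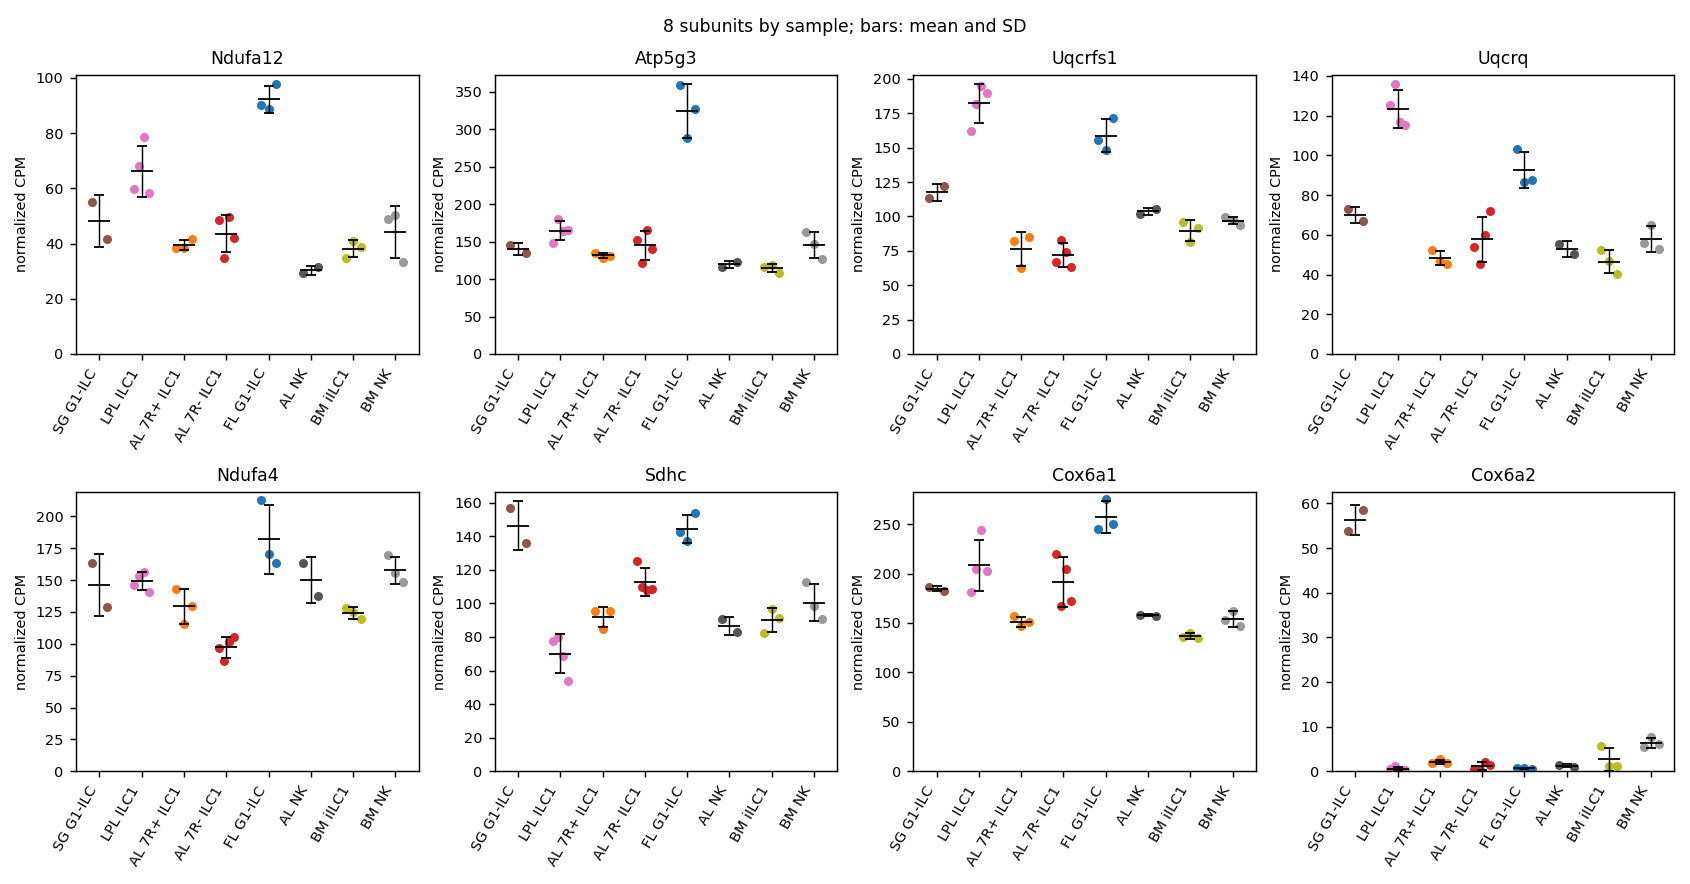
Normalized CPM of 8 subunits by group, with points for samples and bars for the mean and SD. *Ndufa12* and *Atp5g3* peak in FL G1-ILCs, *Uqcrq* and *Uqcrfs1* in LPL ILC1s, *Ndufa4* is low in AL 7R- ILC1s (86.3 to 105 CPM), *Sdhc* is low in LPL ILC1s (54.0 to 80.0 CPM), and *Cox6a2* is high only in SG G1-ILCs (53.9 and 58.6 CPM) while *Cox6a1* is not.

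Within the adult liver the subunits differed little between ILC1s and NK cells. For AL 7R- ILC1s over AL NK cells 6 of 78 subunits rose and 3 fell, where 20.4% of all genes tested were called (9.94% higher and 10.5% lower). The median log2 fold change was 0.06. *Ndufa5*, an accessory subunit of complex I, had 52.9, 48.2, 66.4 and 40.5 CPM in AL 7R- ILC1s and 26.3 and 29.2 CPM in AL NK cells, with no overlap (0.91, standard error 0.20, adjusted p = 0.00135 by edgeR's quasi-likelihood test). *Ndufa3* (0.49), *Cox5a* (0.47), *Cox7a2l* (0.46), *Ndufa13* (0.43) and *Cox8a* (0.37) also rose.

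The subunits that fell in this comparison were *Ndufa4*, *Uqcrfs1* and *Sdhb*. *Ndufa4* had 96.7, 86.3, 102 and 105 CPM in AL 7R- ILC1s and 163 and 137 CPM in AL NK cells, so that every ILC1 sample was lower (-0.63, standard error 0.12, adjusted p = 0.000431 by edgeR's quasi-likelihood test). *Uqcrfs1* fell by 0.53 and *Sdhb* by 0.33 on the log2 scale. The number of calls depended on single libraries: 14 subunits were called without AL 7R- ILC1 replicate 2, 4 without either AL NK library, and 3 without the filter on low counts. The cell cycle list gave 0 of 10 higher and 5 lower. The T cell list, which holds the ILC1 signature gene *Cd3g*, summed to 3071 to 3693 CPM in AL 7R- ILC1s and 496 and 546 CPM in AL NK cells. The part of these was not tested. When both AL 7R- libraries with erythroid RNA were left out, 5 were called, and *Cox5a*, *Cox7a2l*, *Ndufa13*, *Cox8a* and *Sdhb* no longer passed.

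AL 7R+ ILC1s over AL NK cells, which share the NK libraries, gave 0 subunits higher and 4 lower, where 15.6% of all genes were called (7.96% higher and 7.61% lower). At an unadjusted p under 0.05, 12 subunits and 26.1% of all genes passed. The 4 were *Cox5b* (-0.50), *Uqcrfs1* (-0.43), *Sdhb* (-0.31) and *Atp5a1* (-0.28). *Uqcrfs1* had 82.3, 62.5 and 84.997 CPM in AL 7R+ ILC1s and 102 and 105 CPM in AL NK cells (adjusted p = 0.0301 by edgeR's quasi-likelihood test). DESeq2 called 6, and no subunit was called without AL 7R+ ILC1 replicate 2, without either AL NK library, or without the filter on low counts. A direct comparison of AL 7R+ with AL 7R- ILC1s gave 1 subunit higher and 3 lower, where 5.28% of all genes were called (3.06% higher and 2.22% lower). *Ndufa4* rose, with 143, 116 and 129.7 CPM in AL 7R+ ILC1s and 96.7, 86.3, 102 and 105 CPM in AL 7R- ILC1s (0.41, adjusted p = 0.0258 by edgeR's quasi-likelihood test), while *Ndufa3* (-0.60), *Cox8a* (-0.51) and *Ndufa13* (-0.39) fell. The share of called subunits was therefore no larger than that of all genes. Across the 78 subunits the median log2 fold change was -0.16 and 67 were below 0, including all 17 of complex V. These subunits share libraries and scaling, and the share of all genes below 0 is not given here. The T cell list, *Cd3g* included, summed to 1367 to 1425 CPM in AL 7R+ ILC1s and 3071 to 3693 CPM in AL 7R- ILC1s. Erythroid genes summed to 0.619 to 1.99 CPM in AL 7R+ ILC1s and 0.503 to 415 CPM in AL 7R- ILC1s. The part of these was not tested. Here 8 subunits were called without AL 7R- ILC1 replicate 2, 2 without AL 7R+ ILC1 replicate 3, and 2 without the filter on low counts.

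In bone marrow, a minority of subunits was lower in BM iILC1s than in BM NK cells. Of 78, 0 rose and 12 fell, where 12.1% of all genes tested were called (6.55% higher and 5.55% lower). At an unadjusted p under 0.05, 29 subunits and 22.4% of all genes passed, DESeq2 called 12, and the median log2 fold change was -0.23, against 0.01 over all genes. Complex V gave 5, complex I 3, complex II 2, complex IV 2 and complex III 0. *Atp5b*, the catalytic beta subunit, had 549, 552 and 601 CPM in BM iILC1s and 773, 782 and 682 CPM in BM NK cells, without overlap (-0.39, standard error 0.09, adjusted p = 0.00334 by edgeR's quasi-likelihood test). *Sdhb* had 157, 142 and 157 CPM in BM iILC1s and 198, 210.2 and 187 CPM in BM NK cells (-0.38, adjusted p = 0.00392). *Ndufb8* (-0.45), *Ndufa8* (-0.44), *Ndufv2* (-0.39), *Sdhd* (-0.39), *Cox7a2* (-0.38) and *Atp5o* (-0.37) were the others of the 8 largest.

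All 10 cell cycle genes also fell in BM iILC1s, with summed levels of 464, 481 and 300.1 CPM in BM iILC1s and 1329, 1806 and 673 CPM in BM NK cells. In the same order of replicates, the subunits summed to 7650, 7753 and 7599 CPM in BM iILC1s and 9180.2, 9537 and 8443 CPM in BM NK cells. Erythroid genes summed to 69.7, 9.04 and 202 CPM in BM iILC1s and 1.82 to 3.36 CPM in BM NK cells, with 4 of 8 higher. T cell genes, the ILC1 signature gene *Cd3g* included, summed to 1383 to 1749 CPM in BM iILC1s and 588 to 688 CPM in BM NK cells, with 7 of 8 higher. The part of cycling or other cells was not tested. Calls varied with single libraries: 2 subunits were called without BM NK replicate 2, 5 without BM NK replicate 1, 5, 7 and 6 without BM iILC1 replicates 1, 2 and 3, and 1 without the filter on low counts. BM iILC1 replicate 2 is the one with granulocyte genes such as *Mpo*.

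Between liver and marrow, no nuclear-encoded subunit was called. For AL 7R+ ILC1s over BM iILC1s 0 of 78 passed edgeR's quasi-likelihood test, where 8.06% of all genes did (3.84% higher and 4.23% lower), with 3 subunits at an unadjusted p under 0.05 (18.8% of all genes) and 0 by DESeq2. Log2 fold changes ran from -0.48 to 0.39, with a median of 0.05. For AL NK cells over BM NK cells 0 passed, where 2.58% of all genes did (1.57% higher and 1.01% lower), with 7 at an unadjusted p under 0.05 (14.5% of all genes) and 1 by DESeq2, and the median was -0.07. The contrast of AL 7R+ ILC1s over AL NK cells was also set against that of BM iILC1s over BM NK cells, which gave 0 subunits, where 3.09% of all genes passed (1.35% higher and 1.74% lower), with 5 at an unadjusted p under 0.05 (12.5% of all genes) and 0 by DESeq2.

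Some mtDNA-encoded subunits did differ between liver and marrow. They were lower in AL 7R+ ILC1s than in BM iILC1s for 6 of 12 genes and higher for 0, with a median log2 fold change of -0.44, and lower in AL NK than in BM NK cells for 4 of 12. *mt-Nd1*, a core subunit of complex I, had 607, 616 and 639.6 CPM in AL 7R+ ILC1s and 1043, 931 and 908 CPM in BM iILC1s (-0.63, standard error 0.08, adjusted p = 7.67e-06 by edgeR's quasi-likelihood test). In the NK cells it had 484 and 543 CPM in liver and 782, 769 and 754 CPM in marrow (-0.58, adjusted p = 0.000554). Neither pair overlapped. *mt-Co1*, the catalytic core of complex IV, had 409 and 458 CPM in AL NK cells and 702, 721 and 715 CPM in BM NK cells (-0.72).

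**Figure D5:**
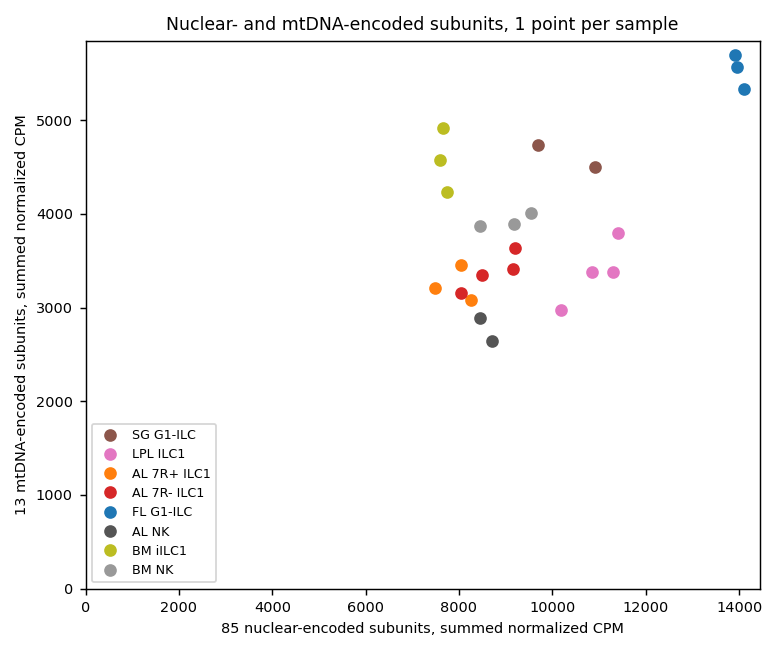
Summed normalized CPM of the mtDNA-encoded subunits on the vertical axis against that of the nuclear-encoded subunits on the horizontal axis, with 1 point for each sample coloured by group. FL G1-ILCs are high on both axes, BM iILC1s are high for mtDNA (4238 to 4913 CPM) and low for nuclear subunits (7599 to 7753 CPM), and LPL ILC1s are above AL 7R+ ILC1s for nuclear subunits only.

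Nuclear and mtDNA-encoded subunits thus gave different orders of the groups. The summed mtDNA-encoded level was 5328 to 5695 CPM in FL G1-ILCs, 4502 and 4739 in SG G1-ILCs, 4238 to 4913 in BM iILC1s, 3868 to 4007 in BM NK cells and 2641 and 2886 in AL NK cells. Divided by the nuclear sum of the same library, it was highest in BM iILC1s (0.547 to 0.642) and lowest in LPL ILC1s and AL NK cells (means of 0.309 and 0.323). FL G1-ILCs, with a mean ratio of 0.395, were close to AL 7R- ILC1s, with 0.388. In the marrow, the mtDNA sum of BM iILC1s was 1.17 times that of BM NK cells while the nuclear sum was 0.85 times. *mt-Nd1* was the only mtDNA gene called there, with 1043, 931 and 908 CPM in BM iILC1s and 782, 769 and 754 CPM in BM NK cells (0.32, adjusted p = 0.00990 by edgeR's quasi-likelihood test). Reads of mtDNA genes depend on how copies of mtDNA in the nuclear genome were treated in alignment, which is not stated in the sources used here.

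Genes that encode alternative forms of a subunit were mostly detected in 1 form only. *Cox4i1* had 199 to 391 CPM over all samples while *Cox4i2* had at most 7 reads in a library, and *Cox6b2* (at most 9 reads), *Cox7a1* (6), *Cox7b2* (2), *Cox8b* (2) and *Cox8c* (2), forms known mainly from muscle, lung or testis, were equally low. *Ndufa4l2*, a relative of *Ndufa4* known to be induced by hypoxia, had at most 2 reads except for 42 in FL replicate 4. These 7 genes were not tested. *Cox6a2* was the exception described above. The 3 genes for the c subunit of the ATP synthase were all expressed and differed in pattern: *Atp5g1* and *Atp5g3* rose in LPL ILC1s over AL 7R+ ILC1s (0.56 and 0.32), whereas *Atp5g2* had 28.3, 32.1, 45.7 and 36.6 CPM in LPL ILC1s and 41.3, 42.6 and 48.5 CPM in AL 7R+ ILC1s and was not called.

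As a description of how far the subunits moved together, the median correlation of log2 levels between pairs of the 78 was 0.67 over the 24 samples, and 71 subunits correlated above 0.5 with the mean of the others. Over the 21 adult samples 61 did so, and the median correlation with the mean of the others was 0.77, against 0.84 with FL samples included. The points share libraries and their scaling. *Atp5s* (-0.35), *Cox6a2* (-0.22) and *Ndufb2* (-0.15) did not follow the rest, and *Sdhc* (0.36), *Sdha* (0.37) and *Cox7a2l* (0.45) did so only weakly. *Sdhc* and *Sdha* belong to complex II, which has no mtDNA-encoded subunit.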

How the data were processed

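RNA of 8 sorted mouse populations was sequenced by the authors with a full-length SMART-seq kit. As the submitters' processing notes name them, the tools were fastp 0.23.0, HISAT2 2.1.0 on mm10 and featureCounts of Subread 1.6.5. The authors deposited whole-number counts per gene, not normalized; annotation release, strand and multi-mapping settings are not given in the sources used here. Identifiers were matched to GENCODE vM21 on the same build, and 849 of 46078 without a match held 0.104% of counts. Totals were 2302643 to 7995906 counts per library, and low-count genes are limited by them.

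Counts were fitted in edgeR 4.0.16 (R 4.3.3, limma 3.58.1) with TMM scaling, filterByExpr (minimum count 10), 1 fit of 8 groups and glmQLFTest, adjusted by Benjamini-Hochberg over 14123 genes and called under 0.05. The fit had 16 residual degrees of freedom, so AL NK cells and SG G1-ILCs with 2 libraries borrow the spread of the other groups. FL replicates 2 and 3 were summed. The summed NK marker list is not reported here. The procedure was tested on simulated data. Subunits, gene lists and comparisons were chosen with earlier results of these data known. The text names, per complex, the 2 subunits of highest level per kb and the 2 of widest range (average log2 CPM of at least 3), and, per comparison, up to 8 called subunits per direction whose groups did not overlap, with isoform sets, untested subunits and up to 3 genes per direction of each list. Other named genes, such as *Ndufa1*, *Sdha*, *Sdhd* and *Atp5g2* in single comparisons, were chosen after their values were seen. Alternatives were DESeq2 1.42.0, RLE size factors, no filter, only the groups compared, separate FL libraries, a replicate block, each library left out (a group left with 1 sample is assumed to vary like the others), and, added after the data were seen, AL 7R- ILC1 replicates 2 and 3 left out.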

Additional observations from a re-analysis of the deposited data

Results flagged for a closer look

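Among 84 sets of 4 samples examined for a value far from the others, 3 held one, where chance gives about 1 in 20. In AL 7R- ILC1s, replicate 1 had a complex II sum of 760.2 CPM, against 703 to 708 CPM in the other 3 replicates, and its *Sdhc* level of 125 CPM stood apart from 108 to 109.7 CPM. The complex II sum contains *Sdhc*. In LPL ILC1s, replicate 3 had 144 CPM of *Cox7a2*, against 116 to 120.4 CPM in the other replicates.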

How the results depend on the processing

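No called subunit named for its comparison by the rule of up to 8 per direction reversed its direction in an alternative run that tested it. The direction of the other subunits was not examined in these runs, and counts were compared by their number only. With no filter on low counts, the called subunits were 3 for AL 7R- ILC1s over AL NK cells, 0 for AL 7R+ ILC1s over AL NK cells, 2 for AL 7R+ over AL 7R- ILC1s, 1 for BM iILC1s over BM NK cells, 1 for AL NK over BM NK cells, 29 for LPL over AL 7R+ ILC1s and 9 for SG G1-ILCs over AL 7R- ILC1s. With only the groups compared in the fit, 1 was called for AL 7R+ ILC1s over AL NK cells and 1 for AL NK over BM NK cells, and DESeq2 called 1 for AL NK over BM NK cells. Without AL 7R- ILC1 replicates 2 and 3, chosen after seeing the data, 5 were called over AL NK cells. RLE size factors ended the calls of *Cox7a2* in BM iILC1s over BM NK cells (-0.36) and *Ndufv2* in SG G1-ILCs over AL 7R- ILC1s (-0.27) and moved 6 summed levels by over 1 SD, such as the summed level of complex I in FL G1-ILC samples (3959 CPM). Leaving out each library in turn gave 4 to 14 for AL 7R- ILC1s over AL NK cells, 0 to 5 for AL 7R+ ILC1s over AL NK cells, 2 to 8 for AL 7R+ over AL 7R- ILC1s, 2 to 13 for BM iILC1s over BM NK cells, 7 to 17 for SG G1-ILCs over AL 7R- ILC1s, 58 to 64 for AL 7R- ILC1s over FL G1-ILCs, 50 to 64 for FL G1-ILCs over AL NK cells, 51 to 56 for LPL over AL 7R+ ILC1s and 73 to 76 over the 8 groups. In 73 cases a named gene lost its call when 1 library was left out. The cause of these changes was not tested. A replicate block, with FL libraries separate, gave 61 for FL G1-ILCs over AL NK cells, 54 for LPL over AL 7R+ ILC1s and 11 for BM iILC1s over BM NK cells, and 0 of 74 same-numbered pairs of libraries of different groups correlated above 0.1 after group means were removed, with 6 of 25 libraries closest to one of their own number. Of the named genes only *Cox8a* in AL 7R- ILC1s over AL NK cells lost its call under the block.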
